A study of Arabidopsis thaliana with 12 samples.

Results

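The Arabidopsis thaliana line OE1, which overexpresses the flavonol synthase transgene TaFLS (TaFLS1 in the study's design text), was compared with its wild type Col-0 across an Affymetrix array. The comparison took the 3 arrays titled as overexpression line 1 and the 3 titled Col-0, 6 of the 12 arrays in all, and 22746 of the 22810 probe sets, after the 64 control probe sets were set apart. Both groups were rosette leaves of 6-week-old soil-grown plants kept at 22 °C and 60% relative humidity under days of 16 h, so that the transgene is the labelled difference between them. The promoter that drives the transgene, the number of insertions and whether each array came from separate plants are not given in the sources used here. The labels describe leaf and guard cell flavonols as lowered in OE1. They describe them as raised in the second overexpression line, OE2, and in fls1-3, a mutant named for FLS1, and these statements conflict for lines of the same transgene. The groups are therefore the arrays with each label. OE2 and fls1-3, with 3 arrays each, lent their spread to the fit and are shown where a value of OE1 needs a neighbour.

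Flavonol synthase turns dihydroflavonols into flavonols such as quercetin and kaempferol, which plants store as sugar conjugates. Dihydroflavonol reductase competes for the same substrate and leads to anthocyanins. In leaves, flavonols absorb ultraviolet light, act as antioxidants and modulate auxin transport and guard cell signalling. The transgene and FLS1 have no probe set naming them in the annotation used here, so neither level could check the labels.

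The control transcripts of OE1 stood apart before any gene was compared. Each array carries probe sets at the 3' and the 5' end of GAPDH, actin and ubiquitin transcripts, 6 pairs in all, and their log2 difference grows where cDNA or cRNA reaches the 5' end less often. Averaged over the 6 pairs, the difference was 1.93, 1.87 and 2.06 on the Col-0 arrays and 2.28, 2.58 and 2.59 on the OE1 arrays. All 3 OE1 arrays lay above all 3 Col-0 arrays, and above all 6 arrays of OE2 (1.88 to 2.01) and fls1-3 (1.60 to 1.85). The difference of 0.53 between OE1 and Col-0 had an exact two-sided permutation p of 0.10, the smallest that 3 against 3 arrays allow. In 5 of the 6 pairs every OE1 array exceeded every Col-0 array, the exception being the Athal actin pair at 5.27 ± 0.17 (SD, n = 3) against 5.12 ± 0.25. The 5' ends carried more of the difference than the 3' ends. The 5' GAPDH probe set averaged 10.60 ± 0.31 in OE1 and 11.35 ± 0.15 in Col-0, against 12.87 ± 0.15 and 12.65 ± 0.25 at the 3' end. The dap, lys, phe and thr spikes, which are not plant transcripts, showed no such rise. Their 3' to 5' differences changed by -0.21, -0.29, 0.020 and -0.53 from Col-0 to OE1 (exact permutation p from 0.2 to 0.9). Within a group they ranged more widely than 0.53, as from 0.27 to 2.15 for lys in Col-0 and 0.17 to 1.16 for phe in OE1. A rise of that size in the spikes could therefore go unseen. The reason for the shift in the plant controls was not tested. The part that the shift of the plant controls plays in the results below was not tested. It cannot be told apart from the genotype where it moves with it, so values fitted with it as a covariate stand beside many of them. Because every OE1 array lay above all other arrays, those fitted values lean on the smaller variation within groups. They are less precise and are not corrected estimates.

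**Figure D1:**
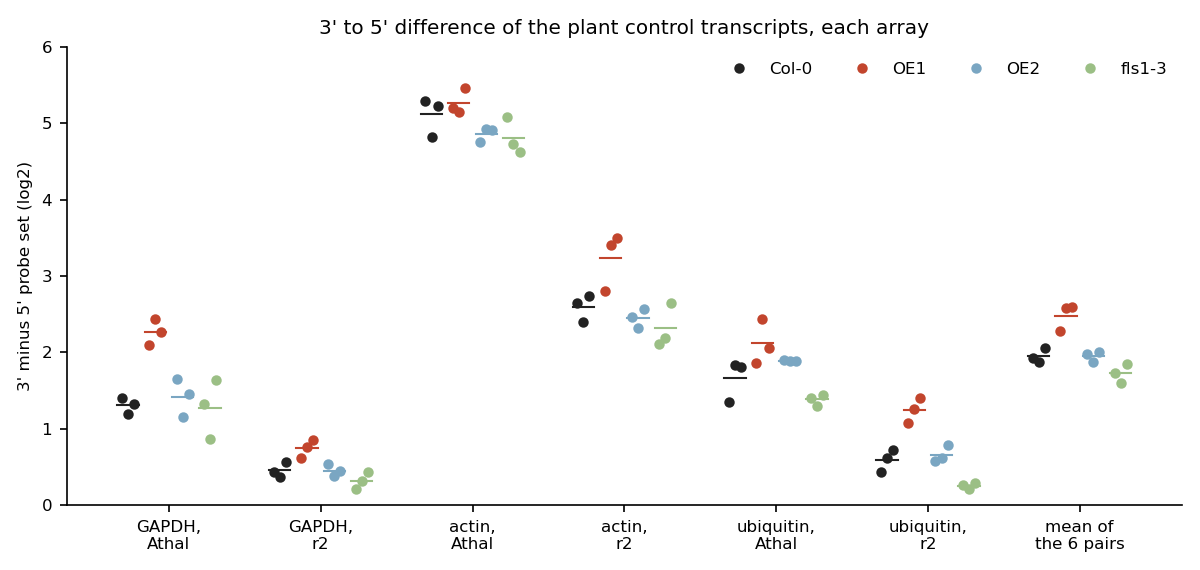
Difference between the 3' and the 5' probe set (log2) of the 6 plant control pairs and their mean, with 1 point per array and a line at each group mean. The 3 OE1 points of the mean, between 2.28 and 2.59, sit above the 9 others.

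Other array-wide values moved with the groups too. Array medians ran from 7.09 to 7.42 in Col-0 and from 7.30 to 7.55 in OE1. Values at the floor of 0 made up 0.642% to 1.33% of a Col-0 array and 0.488% to 0.629% of an OE1 array, with no overlap. The 25S rRNA control averaged 13.13 ± 0.24 (SD, n = 3) in OE1 and 12.59 ± 0.31 in Col-0, with every OE1 array above every Col-0 array, and 13.13 in OE2. Their part in the results was not tested. Across probe sets the arrays correlated at r = 0.916 to 0.923 within OE1, 0.908 to 0.924 within Col-0 and 0.885 to 0.930 between them. The hybridisation spikes, added after labelling, averaged 11.06 ± 0.15 in OE1 and 10.79 ± 0.048 in Col-0, and 6 of their 18 probe sets had every OE1 array above every Col-0 array. RCA, the gene of Rubisco activase and the 1 leaf marker measured of 15 listed, had a level of 14.76 to 15.18 in both groups. The root marker PYK10 stood at 5.79, 8.14 and 10.78 in Col-0 and at 11.11, 5.35 and 10.97 in OE1, so it varied between arrays of 1 group over a wider range than between groups. The other root markers measured, EXPA7, EXPA18 and AGL42, averaged under the median of all probe sets (7.34), as did MGH3 of pollen and OLEO3 of seeds. In bulk leaf RNA, fewer cells of a type and less RNA per cell cannot be told apart.

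Across the array, no probe set passed an adjusted p of 0.05 in limma, 0% of 22746, and the lowest adjusted p was 0.0776. At an unadjusted p under 0.05, 1389 probe sets (6.11%) were higher in OE1 and 1040 (4.57%) were lower, 10.7% together. All 3 OE1 arrays lay above all 3 Col-0 arrays for 2040 probe sets (8.97%) and below them for 1213 (5.33%). The median difference of all probe sets was 0.11 on the log2 scale, and with every array centred on its own median it became -0.059. The balance between directions moved with that choice. Of the probe sets at an unadjusted p under 0.05, 57.2% were higher in OE1 with the deposited values, 46.22% after quantile normalization, 34.3% with centred arrays and 44.5% with the mean 3' to 5' difference as a covariate. Single arrays also moved these counts. Leaving out replicate 1 of Col-0 gave 819 higher and 679 lower probe sets, and leaving out its replicate 3 gave 2424 higher. The higher ones numbered 780 without the first OE1 array and 834 without its replicate 3. Differences below are therefore read against 0.11, or against the median at their own level of signal, which is given next.

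The median difference varied with the mean signal. In the lowest quartile of mean signal, 3.94% of probe sets were higher and 2.29% lower in OE1 at an unadjusted p under 0.05, with a median difference of 0.15. In the second quartile the median was 0.21 and the shares were 4.41% and 2.36%. The third quartile had a median of 0.11, with 7.77% higher and 4.94% lower. In the brightest quartile the median was 0.0145, and 8.30% were higher and 8.70% lower.

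The 12 probe sets named as higher in OE1, for 11 genes, included 3 genes of the plastid genome, of which psaC ranked first of the 12. The 12 were those with the smallest limma p among 687 probe sets that name 1 gene, reach the median signal and separate the groups. Their separation is thus a condition of the choice. psaC, the gene of the iron-sulfur subunit of photosystem I, stood at 6.09, 6.99 and 7.11 on the Col-0 arrays and at 9.05, 10.17 and 9.53 on the OE1 arrays. The gap between the groups was wider than the range within either. Its difference was 2.86 ± 0.39 (SE, n = 3 against 3; adjusted p = 0.0860), a 7.24-fold higher level. The level was 6.86 ± 0.58 (SD, n = 3) in OE2 and 5.97 ± 0.27 in fls1-3, and OE1 was higher than both by the test of each difference (2.72, adjusted p = 0.0469 and 3.61, adjusted p = 0.0021). rpl20, the gene of a protein of the large plastid ribosomal subunit, stood at 8.09, 9.23 and 9.53 in Col-0 and at 10.27, 10.28 and 10.22 in OE1. Its OE1 arrays nearly coincided while the Col-0 arrays spread, with replicate 1 lowest, and its difference was 1.302 ± 0.28 (adjusted p = 0.305). atpH, the gene of the ring subunit of the chloroplast ATP synthase, stood at 10.06, 10.80 and 11.004 in Col-0 and at 11.33, 12.05 and 11.60 in OE1. Its difference from Col-0 was 1.04 ± 0.25 (adjusted p = 0.345), and that from fls1-3, 1.36, passed (adjusted p = 0.0372).

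The other named genes that were higher in OE1 are nuclear. ETL1, listed also as CHROMATIN REMODELING 19, averaged 10.15 ± 0.18 (SD, n = 3) in OE1 and 9.43 ± 0.32 in Col-0. AT2G02160 stood at 9.21, 9.12 and 9.19 in Col-0 and at 10.20, 9.69 and 9.97 in OE1, a difference of 0.78 ± 0.14 (SE; adjusted p = 0.219). Its Col-0 arrays spread less than those of OE1. AT2G30600 was read by a pair of probe sets, which gave 0.99 ± 0.19 (adjusted p = 0.219) and 0.95 ± 0.22 (adjusted p = 0.345). AT3G15630 stood at 8.18, 7.59 and 8.79 in Col-0 and at 9.51, 9.19 and 9.55 in OE1, and at 10.50 on average in OE2. AT1G52720 averaged 9.48 in Col-0, 10.18 in OE1, 11.19 in OE2 and 11.66 in fls1-3, so that OE1 was nearest to the wild type of the 3, and its difference from fls1-3 passed (-1.48, adjusted p = 0.00209). AT2G40760, AT1G15200 and AT1G11630 had differences of 0.66, 0.79 and 1.05, each at an adjusted p of 0.345. The names of these loci in the annotation give no function.

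**Figure D2:**
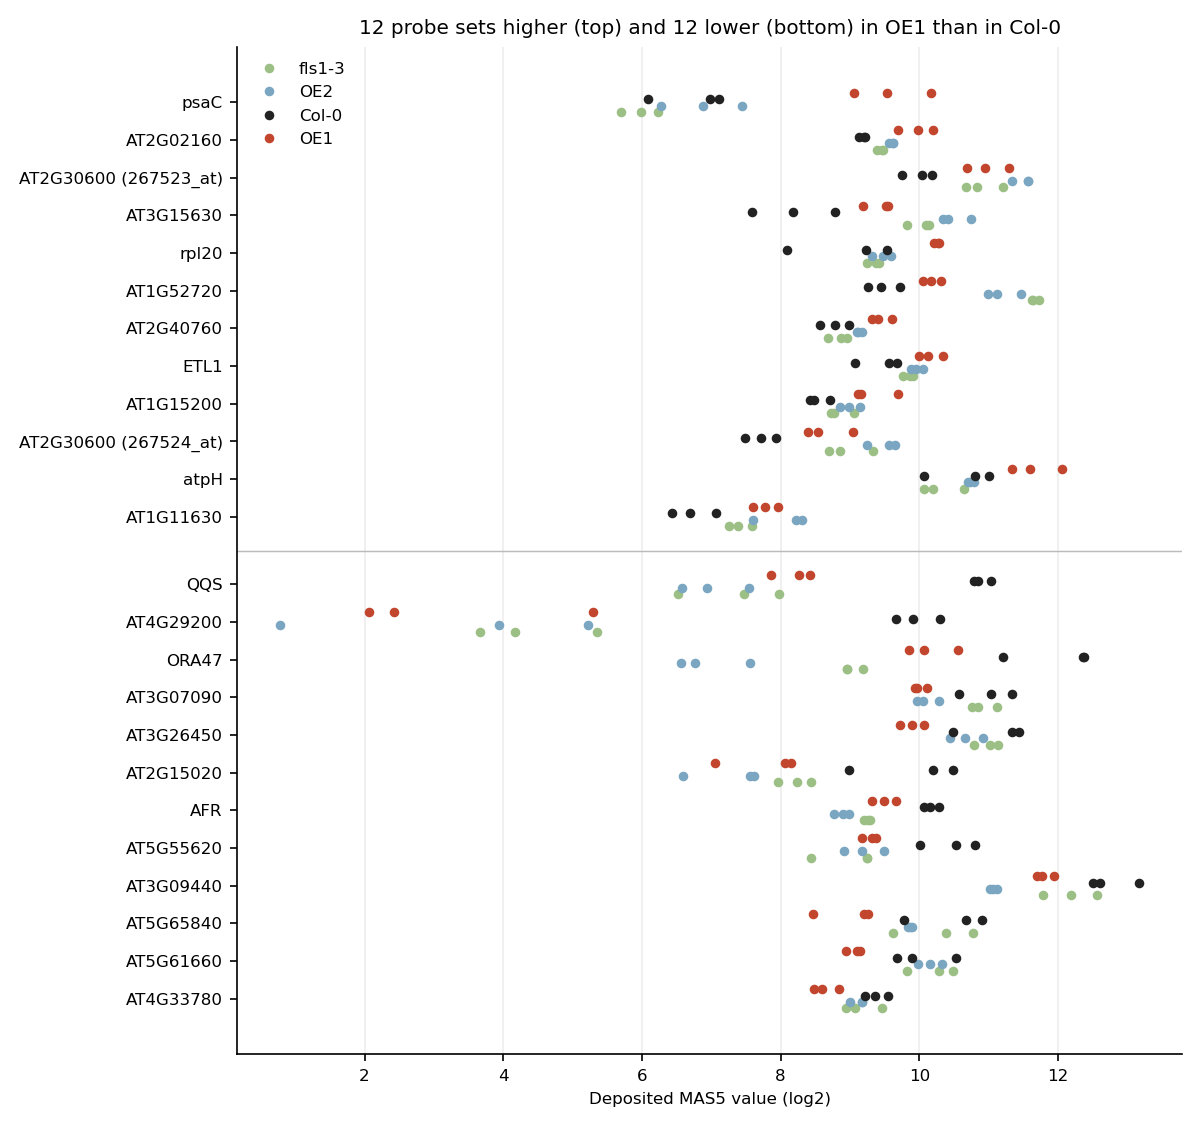
Deposited MAS5 value (log2) of the 12 named probe sets higher and the 12 lower in OE1, with 1 point per array in each of the 4 groups. The OE1 and Col-0 points of each row do not overlap, as the choice required, and the psaC points of OE1, from 9.05 to 10.17, lie right of all 9 others.

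The 12 genes named as lower in OE1, of 439 probe sets that met the same conditions, included regulators of starch and of jasmonate and light responses. QQS, a gene unique to Arabidopsis thaliana whose loss raises leaf starch, stood at 10.85, 11.04 and 10.79 in Col-0 and at 7.86, 8.26 and 8.42 in OE1. The highest OE1 array, at 8.42, lay far below the lowest Col-0 array, at 10.79. The difference was -2.71 ± 0.34 (SE, n = 3 against 3; adjusted p = 0.0776), the lowest adjusted p of the comparison. Levels in OE2 (7.01 ± 0.49, SD) and fls1-3 (7.32 ± 0.74) were on the same side of Col-0, and those of OE1 did not pass against either (adjusted p = 0.303 and 0.248). AT4G29200 stood at 9.66, 9.91 and 10.29 in Col-0 and at 5.29, 2.07 and 2.43 in OE1. The OE1 levels were dim, so the size of the difference, -6.69 ± 1.07 (adjusted p = 0.183), depended on the scale. It was -5.13 (adjusted p = 0.00415) with a pseudocount of 16 and -3.75 (adjusted p = 6.5e-05) with 64, and it passed there. Its mean was 3.31 in OE2 and 4.39 in fls1-3, and the highest of the 9 arrays other than Col-0 was 5.35.

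ORA47, an AP2/ERF transcription factor gene that activates jasmonate biosynthesis genes, stood at 12.37, 12.36 and 11.21 in Col-0 and at 9.85, 10.56 and 10.07 in OE1. The groups did not overlap, and Col-0 replicate 3 was the nearest to OE1. Its difference was -1.82 ± 0.33 (adjusted p = 0.219). OE2 lay lower still at 6.96 ± 0.53, and OE1 exceeded it by 3.199 ± 0.33 (adjusted p = 0.00244). AFR, an F-box gene of far-red light signalling through phytochrome A, stood at 10.15, 10.28 and 10.06 in Col-0 and at 9.49, 9.67 and 9.31 in OE1. Its difference of -0.67 ± 0.13 (adjusted p = 0.249) was the smallest of the lower genes and rested on narrow spreads. The differences of OE2 and fls1-3 from the same Col-0 arrays were larger in size, -1.28 and -0.91. AT2G15020 stood at 10.49, 10.19 and 8.99 in Col-0 and at 7.05, 8.07 and 8.15 in OE1, a difference of -2.14 ± 0.41 (adjusted p = 0.226). AT3G26450 averaged 11.08 ± 0.52 (SD) in Col-0 and 9.89 ± 0.17 in OE1, AT3G07090 averaged 10.98 ± 0.38 and 10.005 ± 0.096, and AT5G55620 averaged 10.44 ± 0.40 and 9.28 ± 0.10. AT3G09440, AT5G65840, AT5G61660 and AT4G33780 had differences of -0.96, -1.48, -0.97 and -0.73. Of these, AT5G61660 was also lower in OE1 than in fls1-3 by a difference that passed (-1.14, adjusted p = 0.0458).

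The named genes kept their direction when the 3' to 5' covariate entered the fit, with uneven sizes. QQS moved from -2.71 to -2.51, ORA47 from -1.82 to -1.95 and AT4G29200 from -6.69 to -6.29. Those 3 values stayed near the first ones. psaC moved from 2.86 to 1.67 and atpH from 1.04 to 0.23. AT5G55620 moved from -1.16 to -0.52. No probe set passed an adjusted p of 0.05 in that fit.

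A count past the threshold appeared when 1 Col-0 array was left out. Without Col-0 replicate 3, 22 probe sets passed, 8 higher and 14 lower in OE1. The named genes among them are QQS, psaC, ORA47, AT2G15020, AT3G07090, AT3G15630, AT3G26450, AT1G48580, AT3G15720 and AT5G48570, the last listed also as FKBP65, an immunophilin. No other array of OE1 or Col-0 had that effect, since the count stayed at 0 without each of the other 5, while leaving out replicate 1 or 2 of fls1-3, whose arrays add to the shared spread, let QQS pass alone.

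Genes of the plastid genome leaned toward higher values in OE1. The plastid genome encodes core subunits of the photosystems, the cytochrome b6f complex, the ATP synthase and the NDH complex, and parts of its own RNA polymerase and ribosome. Of 69 plastid genes, 51 had a positive difference (58.2% of all probe sets did) and the median was 0.23. At an unadjusted p under 0.05, 17 of the 69 were higher in OE1, 24.6% against 6.11% of all probe sets, and 0 were lower. All OE1 arrays lay above all Col-0 arrays for 22 genes, 31.9% against 8.97%, and below them for 0. Of the 69 genes, 63 reached the median signal. In the third and the brightest quartile of signal, 7.77% and 8.30% of probe sets were higher at that p. All OE1 arrays lay above all Col-0 arrays for 10.9% and 9.71% of those quartiles. None passed the adjusted threshold, and plastid genes are often transcribed together, so they are not separate readings. The median differences of OE2 and fls1-3 from the same Col-0 arrays were -0.0116 and -0.088.

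All 24 genes of the plastid gene expression and other list had positive differences, with a median of 0.41, beside 12 of 22 photosystem genes. With the 3' to 5' covariate 14 of those 24 were positive, at a median of 0.063. All 15 ribosomal protein genes measured had positive differences, 10 with OE1 above Col-0 on every array and 6 at an unadjusted p under 0.05, and their median was 0.42. rpl16 stood at 12.17, 12.60 and 12.83 in Col-0 and at 13.27, 13.23 and 13.23 in OE1, a difference of 0.71 ± 0.17 (adjusted p = 0.345). rps15 and rps16, of the small subunit, had differences of 0.82 ± 0.22 and 0.64 ± 0.18. All 4 RNA polymerase genes had positive differences, with rpoC2 highest at 0.64. accD, the plastid subunit of acetyl-CoA carboxylase, had 0.93 ± 0.34, and matK, a maturase of plastid introns, 0.52 ± 0.20.

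Photosynthetic subunits were divided. Of 15 photosystem II genes 6 were positive, with a median of -0.040 and psbM lowest at -0.40. psbN alone of them separated the groups, at 9.56, 10.02 and 9.93 in Col-0 and 10.33, 10.82 and 10.57 in OE1. Of 10 NDH genes 4 were positive and the median was -0.048. Of 6 cytochrome b6f genes 5 were positive, with petL, a small subunit, at 0.82 ± 0.22 (adjusted p = 0.364), and of 6 ATP synthase genes 5 were positive.

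Some of the higher genes are neighbours. psaC and ndhE, at 2.86 and 0.86, lie side by side on the plastid genome, between ndhD at -0.11 and ndhG at -0.26. The genes atpH, atpI, rps2, rpoC2 and rpoC1, at 1.04, 0.73, 0.50, 0.64 and 0.55, form a run. Their neighbour atpF, at 0.41, did not reach an unadjusted p of 0.05. Of the 34 plastid genes with a Col-0 level of 12 or more, 2 (5.88%) were higher at an unadjusted p under 0.05, against 15 of the 35 dimmer ones (42.9%). The share over all probe sets was 6.11%, so at that p the brighter plastid genes showed no excess. By separation of the arrays they did. All OE1 arrays lay above all Col-0 arrays for 8 of the 34 (23.5%) and below for 0. That held for 8.97% of all probe sets and 9.71% of the brightest quartile. Of the 34 genes, 23 were positive. The 242 nuclear genes at a Col-0 level of 12 or more had a median difference of 0.0205, with 124 of them positive. Of these nuclear genes 7.44% were higher and 9.09% lower at that p.

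**Figure D3:**
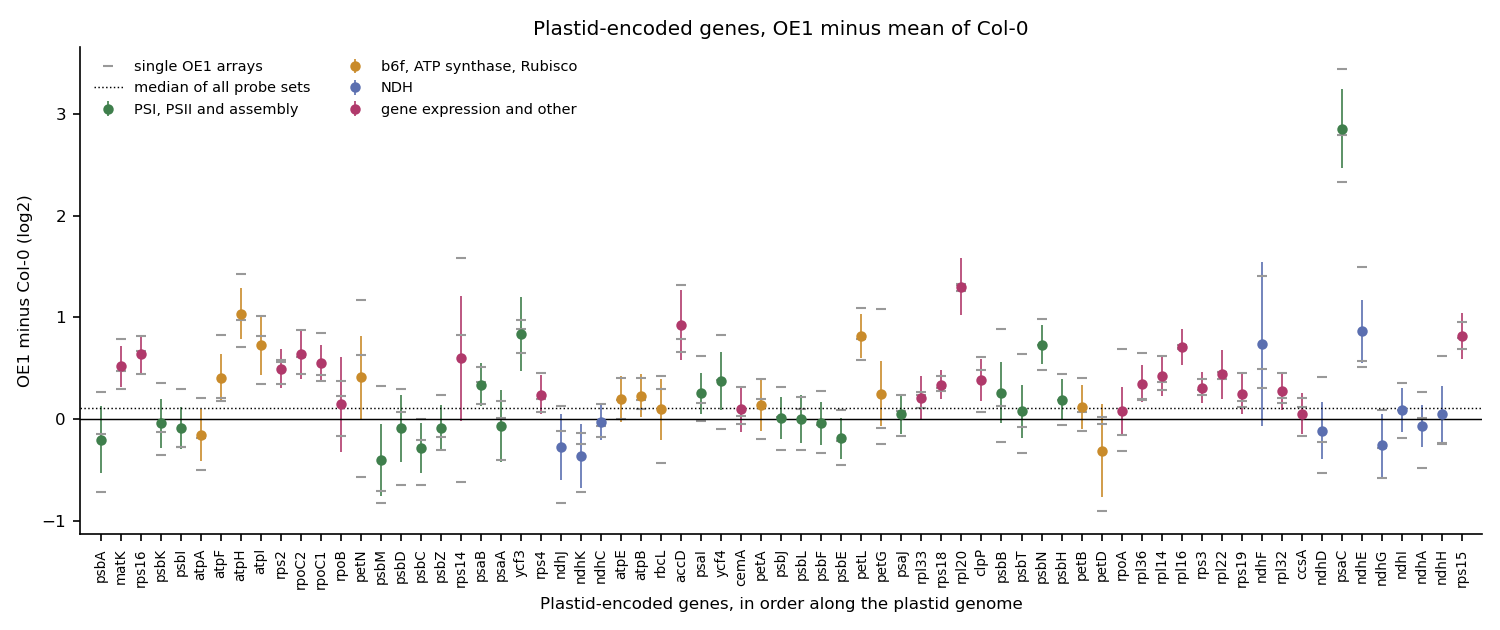
OE1 minus the mean of Col-0 (log2) for 69 plastid-encoded genes in order along the plastid genome. Points are limma differences with their SE, coloured by the role of the gene, grey dashes are single OE1 arrays and the dotted line is the median of all probe sets, 0.11. psaC stands highest at 2.86, and the gene expression group lies above 0 throughout.

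The plastid median rested largely on 1 array. Set against the mean of the 4 groups, the median plastid gene deviated by -0.063, 0.44 and 0.17 on the OE1 arrays and by -0.18, 0.043 and 0.0037 on the Col-0 arrays. OE1 replicate 1 lay inside the Col-0 range, OE1 replicate 2 was the highest of the 12 arrays, and fls1-3 replicate 3, at 0.24, exceeded the other OE1 arrays. Without OE1 replicate 2 the median difference was 0.072, under the 0.14 of all probe sets in that fit. There 9 genes were higher and 1 lower at an unadjusted p under 0.05, beside 1665 and 1219 of all 22746 probe sets. Without OE1 replicate 1 the plastid median was 0.31, with 20 higher and 0 lower, beside 780 and 752. Without Col-0 replicate 1 it was 0.14, with 11 higher and 1 lower, beside 819 and 679. With centred arrays 8 genes were higher, beside 745 probe sets. With the 3' to 5' covariate 1 gene was, beside 434 probe sets, at a plastid median of -0.27. The share of plastid genes higher exceeded that of all probe sets in each of these fits except the covariate one. The OE1 arrays with the higher plastid medians, replicates 2 and 3, also had the higher mean 3' to 5' differences, 2.58 and 2.59 against 2.28 in replicate 1. The part of that difference in the plastid values was not tested.

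Mitochondrion-encoded genes, also organellar, stood near the values of all probe sets. Of 16 measured, 10 were positive (58.2% of all probe sets were) and the median was 0.12, beside 0.11 for all probe sets. The groups separated for 0 of the 16. Only 1 had an unadjusted p under 0.05, where 6.11% of all probe sets were higher at that p. That was ccb382, a gene of cytochrome c maturation, at 0.55 ± 0.24 (adjusted p = 0.460), while nad9, of complex I, was at -0.59 ± 0.29.

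The autophagy genes listed and measured had negative differences in OE1, none of which passed the adjusted threshold. ATG8 proteins coat the autophagosome membrane, and ATG3 is the conjugating enzyme that attaches them to lipid. The 9 ATG8 genes and ATG3, singled out after their values were seen, all had negative differences, where 41.8% of all probe sets did, from -0.67 to -0.32 with a median of -0.50. Of the 10, 4 had every OE1 array below every Col-0 array (5.33% of all probe sets) and 2 had an unadjusted p under 0.05 (4.57%). In the brightest quartile of signal these shares were 8.49% and 8.70%. APG8H stood at 11.97, 11.59 and 11.17 in Col-0 and at 11.04, 11.04 and 11.06 in OE1, a difference of -0.53 ± 0.20 (adjusted p = 0.435). ATG8B stood at 8.67, 8.34 and 8.19 in Col-0 and at 8.01, 7.71 and 7.79 in OE1. In both genes the nearest Col-0 array to OE1 was replicate 3.

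The same order held for the group. The median autophagy gene deviated by 0.43, 0.15 and -0.22 on the Col-0 arrays and by -0.23, -0.34 and -0.44 on the OE1 arrays, so that Col-0 replicate 3 nearly met OE1 replicate 1. Those 2 arrays also had neighbouring mean 3' to 5' differences, 2.06 and 2.28, and the 9 arrays other than OE1, with lower control differences, had medians from -0.22 to 0.43. With the 3' to 5' covariate 8 of 10 genes were negative and 0 had an unadjusted p under 0.05. Without single arrays of OE1 and Col-0 the number at that p ranged from 0, without Col-0 replicate 1, to 7, without Col-0 replicate 3, and it was 5 without Col-0 replicate 2 or OE1 replicate 1. The part of the control difference in these values was not tested.

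**Figure D4:**
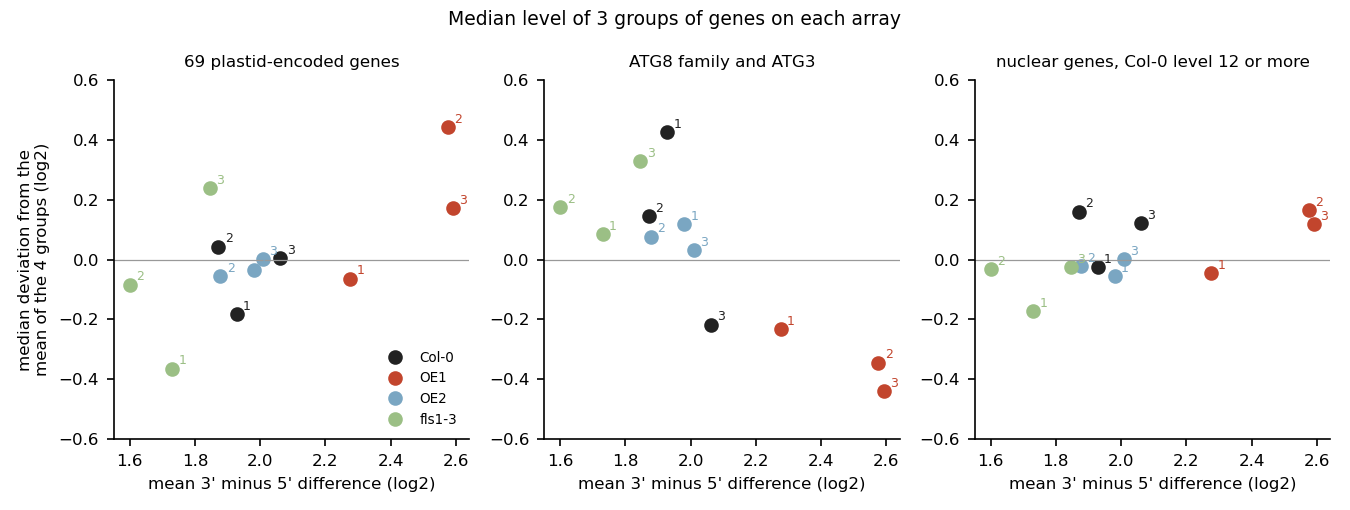
Median deviation from the mean of the 4 groups (log2) on each array for the 69 plastid genes, the 10 autophagy genes and the 242 bright nuclear genes, against the mean 3' to 5' difference of the array (log2), with replicate numbers beside the points. The OE1 autophagy medians, -0.23 to -0.44, are lowest, next to Col-0 replicate 3 at -0.22, and OE1 replicate 1 lies among the other groups in the plastid panel.

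Genes of rapid stress signalling differed in both directions, none past the adjusted threshold. Of 7 measured, 4 were negative, 3 of them at an unadjusted p under 0.05 (4.57% of all probe sets), and 1 was higher at that p (6.11%). With the 3' to 5' covariate 6 were negative, 4 of them at that p. STZ, a zinc-finger repressor of abiotic stress responses, stood at 12.84, 12.15 and 11.36 in Col-0 and at 10.06, 11.39 and 10.91 in OE1. The groups overlapped, since Col-0 replicate 3 lay under OE1 replicate 2, and the difference was -1.33 ± 0.44 (adjusted p = 0.406). WRKY53, a regulator of leaf senescence, had -0.86 ± 0.34 and ORA47 the value given above. For STZ and WRKY53 the other lines lay further from the same Col-0 arrays. The differences of OE2 and fls1-3 from Col-0 were -3.09 and -1.70 for STZ, and -2.14 and -2.34 for WRKY53. AT1G76640, listed also as the calmodulin-like gene CML39, went the other way at 2.88 ± 1.15 (adjusted p = 0.443), from dim levels of 4.36, 1.56 and 2.54 to 5.48, 5.17 and 6.46. Of 8 calmodulin-like genes in all, 6 were negative, among them CML23 at -1.15 and CML37 at -1.101. PDF1.2, a defensin gene induced by jasmonate and ethylene, was at 10.20, 8.45 and 10.41 in Col-0 and at 11.07, 11.49 and 13.14 in OE1, a difference of 2.21 ± 1.26 (adjusted p = 0.524).

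Few flavonoid genes were measured, 1 of 18 listed for flavonol synthesis and 4 of 12 for flavonol glycosylation, and none of these reached an unadjusted p of 0.05. CHIL, the isomerase-like helper of flavonoid synthesis, stood at 5.60, 7.95 and 7.54 in Col-0 and at 8.15, 6.20 and 7.72 in OE1. The groups overlapped. The glycosyltransferases that conjugate flavonols, UGT78D1, UGT78D2, UGT78D3 and AT1G06000, had differences of 0.37, 0.12, 1.19 and 0.19, with 0 of 4 at an unadjusted p under 0.05 and UGT78D3 dim, at no more than 3.97 on any of the 6 arrays.

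Toward anthocyanins, the arrays scattered within each group. DFR, dihydroflavonol reductase, stood at 4.61, 6.86 and 8.24 in Col-0 and at 9.31, 4.13 and 9.57 in OE1. UF3GT, an anthocyanin glycosyltransferase, stood at 1.58, 3.59 and 5.90 and at 6.56, 2.18 and 7.52. In both genes Col-0 replicate 1 and OE1 replicate 2 were the lowest of their groups, as they were for the root marker PYK10. The adjusted p was 0.760 for DFR and 0.636 for UF3GT. BAN, the anthocyanidin reductase of seed coats, had -0.90 at dim levels. In the general phenylpropanoid list 1 of 5 genes separated the groups. It was 4CL8, named as a 4-coumarate ligase, at 4.97, 5.99 and 5.59 in Col-0 and 6.95, 7.45 and 6.92 in OE1 (1.59 ± 0.34, adjusted p = 0.305), and HCT, of lignin synthesis, had -0.27. For 4CL8 the differences of OE2 and fls1-3 from Col-0 were larger, 2.43 and 2.63.

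All 4 glucosinolate genes measured were negative, with a median of -0.54, and -0.62 with the 3' to 5' covariate. GTR1, a glucosinolate transporter that loads the phloem, stood at 11.21, 10.95 and 10.43 in Col-0 and at 9.98, 10.41 and 10.03 in OE1. Its groups met without crossing, and the difference was -0.72 ± 0.23 (adjusted p = 0.404). GTR2, its partner transporter, had -0.62 ± 0.29, BCAT4 and UGT74B1, enzymes of methionine chain elongation and of core synthesis, had -0.45 and -0.37. Of 13 tau and phi glutathione transferases, which conjugate xenobiotics and carry flavonoids, 10 were negative and the median was -0.52, against 11 and -0.46 with the covariate. Of all probe sets 41.8% were negative, and only 4 of the 13 genes reached the median signal. GSTU27 at -0.52 ± 0.18 was the 1 of 13 with an unadjusted p under 0.05, where 4.57% of all probe sets were lower. GSTU20 and GSTU16 had -0.56 and -0.55. GR1, a glutathione reductase, had -0.37 ± 0.14, and 4 of 4 antioxidant enzymes were negative.

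Among genes of carbon supply, 7 of starch metabolism had a median of -0.044, with QQS lowest, and of -0.66 with the 3' to 5' covariate. DPE1, the enzyme that recycles maltotriose in starch breakdown, was higher at 0.73 ± 0.27 (adjusted p = 0.424). SWEET11, a sucrose exporter of phloem parenchyma, stood at 11.64, 10.73 and 10.61 in Col-0 and at 9.02, 10.26 and 10.20 in OE1 (-1.16 ± 0.43, adjusted p = 0.424). It is the 1 phloem marker measured of 20 listed. ATSPS4F, a sucrose phosphate synthase, had -0.76 ± 0.40. MGL, a methionine gamma-lyase listed with sugar starvation, stood at 5.87, 7.37 and 7.61 in Col-0 and at 8.09, 8.15 and 8.31 in OE1.

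Nuclear genes of photosynthesis were mostly negative, with none at an unadjusted p under 0.05. Of 7 light-harvesting and photosystem genes 6 were negative, at a median of -0.057, and -0.36 with the 3' to 5' covariate. LHCB4.3, a minor antenna protein, was lowest of them at -0.42 ± 0.38. Of 4 carbon fixation genes 3 were negative, at a median of -0.30, and -0.797 with the covariate. PRK, phosphoribulokinase, was lowest of them at -0.47 ± 0.28, with OE1 replicate 1 at 13.25 and the next lowest array, OE1 replicate 3, at 13.78. PORB, which makes chlorophyllide in the light, stood at 9.98, 11.89 and 12.06 in Col-0 and at 12.12, 12.27 and 12.21 in OE1, so that its difference of 0.89 ± 0.42 came mainly from Col-0 replicate 1.

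**Figure D5:**
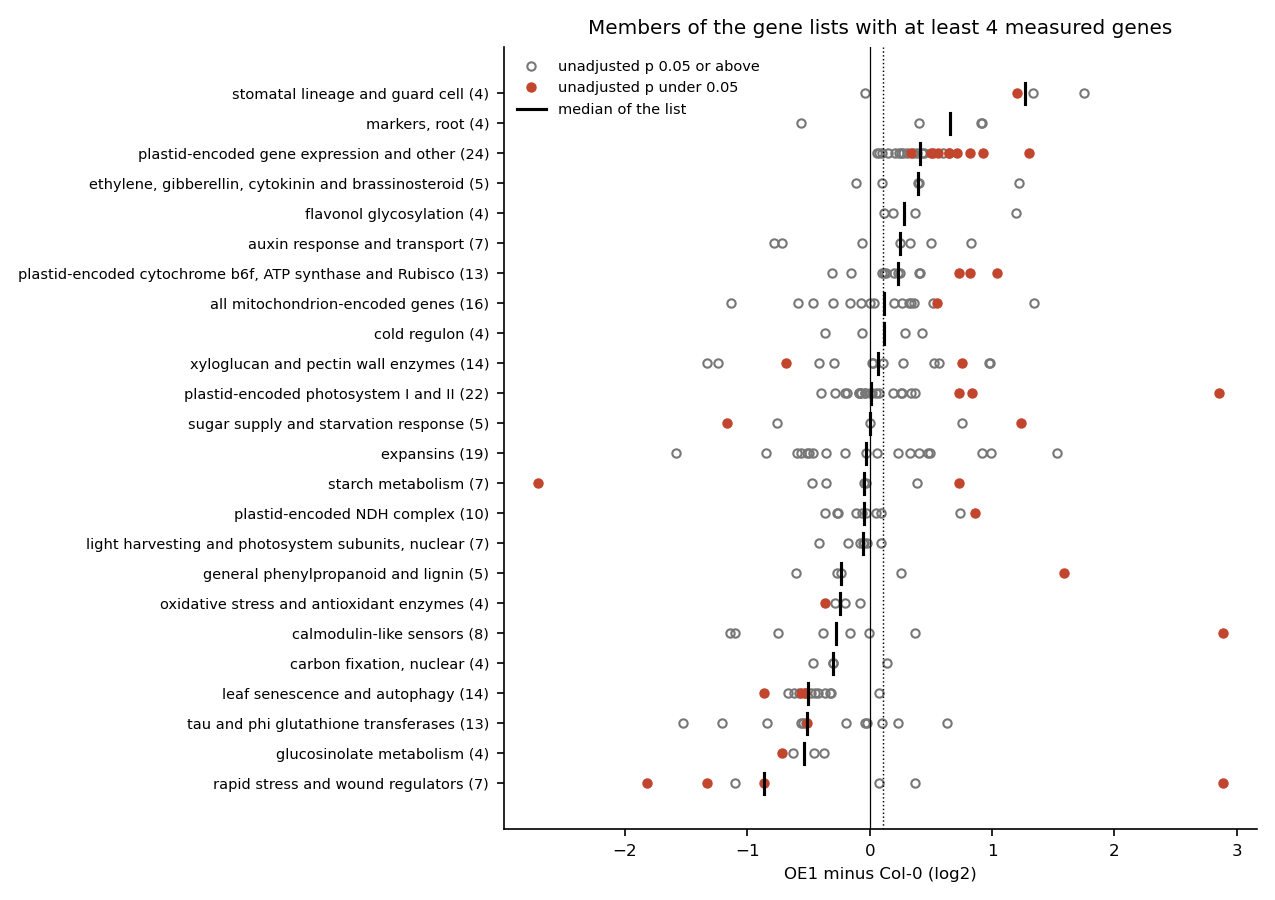
OE1 minus Col-0 (log2) for each measured member of the gene lists with at least 4 measured genes, with the number measured in brackets. Black ticks are list medians, filled points have an unadjusted limma p under 0.05, and the dotted line is the median of all probe sets, 0.11. The plastid gene expression list has all 24 members above 0, and the glucosinolate list all 4 below.

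Genes of growth and of stomata gave few separations. STOMAGEN, a mesophyll peptide that promotes stomata, stood at 7.73, 10.001 and 10.21 in Col-0 and at 10.53, 10.59 and 10.43 in OE1. All OE1 arrays exceeded all Col-0 arrays, and replicate 1 of Col-0 was far below the other Col-0 arrays, as it was for PORB (1.204 ± 0.53, adjusted p = 0.463). The histone genes HTB1 and HTB2 had 0.96 and 0.87, neither at an unadjusted p under 0.05. Of 19 expansins, which loosen cell walls, 9 were positive and 10 negative with 0 at that p, against 12 and 7 with the 3' to 5' covariate. The expansin median moved from -0.030 to 1.03 with it. PME61, a pectin methylesterase, had -0.69 ± 0.27. Of 7 auxin genes 4 were positive, and 3 with the covariate, which moved their median from 0.25 to -1.02. IAGLU, an indole-acetate glucosyltransferase, was lowest in p at -0.78 ± 0.37. COR47, of the cold regulon, had -0.36 ± 0.21. The lists of abscisic acid response, the morning clock and nutrient supply had 0 measured genes here.

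Families outside these lists, formed from shared symbol stems after the values were seen, added proteases of the ubiquitin system and proteins of membrane sorting. Of 12 UBP genes, ubiquitin-specific proteases, 11 were positive with a median of 0.29, and UBP15 at 0.59 had an unadjusted p under 0.05. Of 10 VPS genes, of vacuolar protein sorting, 7 were negative, with VPS46.2 at -0.53 and VPS24.1 at -0.45. Of 14 SWEET genes 8 were negative, and SWEET2 and SWEET13, beside SWEET11, had -0.80 and -1.16. None of these passed the adjusted threshold.

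Set directly against the other lines, OE1 differed from OE2 in 6 probe sets (0.0264% of 22746), 3 higher and 3 lower (0.0132% each), and from fls1-3 in 126 (0.554%), 24 higher (0.106%) and 102 lower (0.448%). Of the 6, ORA47 and psaC name 1 gene. Of the 126, 62 name 1 gene. A total of 3 probe sets passed against both lines, psaC and a pair unnamed here. The unnamed one with the smallest p averaged 7.36 in Col-0, 8.10 in OE1, 9.94 in OE2 and 9.94 in fls1-3, so that OE1 lay between the wild type and the other lines. With the 3' to 5' difference as a covariate 0 probe sets passed against either line. All OE1 arrays lay above the 9 others in that difference, so the loss of calls cannot tell its part from that of the line. Of the 23 other settings tried, psaC passed against OE2 in 10, and atpH and AT5G61660 against fls1-3 in 10 each. ORA47 against OE2, and psaC and AT1G52720 against fls1-3, passed in 22 each. Leaving out any array other than Col-0 replicates 1 and 3 ended the calls of psaC against OE2 and of atpH. That of AT5G61660 ended without any array of OE1 or OE2 and without replicate 1 or 2 of fls1-3. The count against OE2 was 4 to 8 without single arrays, apart from 19 without Col-0 replicate 1 and 11 without replicate 3. The count against fls1-3 was 578 without Col-0 replicate 1, 199 without replicate 3, 92 without replicate 2 and 17 to 76 without each array of the 3 lines. For 439 probe sets (1.93%) all OE1 arrays lay above the 9 others and for 274 (1.205%) below. Of the 69 plastid genes 13 lay above, and of the 24 named probe sets 9 lay apart in their direction.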

How the data were processed

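Rosette leaf RNA was read on 1-colour Affymetrix arrays, from biotin-labelled cRNA made from 6 µg of RNA extracted with Trizol, per the labels' protocols. The deposited table holds log2 signals made by the authors with MAS5, per the submitters' processing notes, with no version given. The values bear out a common scaling, since their 2% trimmed mean on the linear scale was 500.05 on each array of OE1 and Col-0. MAS5 signals of dim probe sets scatter, and the number of arrays limits the precision.

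limma 3.58.1 in R 4.3.3 fitted the values as deposited to all 12 arrays with 1 coefficient per group (8 residual degrees of freedom), an intensity trend, and Benjamini-Hochberg adjustment over 22746 probe sets at a threshold of 0.05. Unless another tool is named, every p of a gene is limma's. Titles call the arrays biological replicates, and p-values measure the spread between them, which may be technical. Controls were compared by exact permutation. On simulated data for OE1 against Col-0 with 22746 probe sets and changes in probe sets above the median signal, 51.5% were recovered at a log2 change of 1 and 99.2% at 2, over 10 simulations. The simulated noise was normal, with a spread set by mean signal alone, so probe sets that vary more than others of their signal were not represented. In the real fit QQS, at -2.71, and psaC, at 2.86, did not pass. The simulated shares are therefore not the recovery to be had from these arrays.

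Gene names come from the platform annotation, which can be old, and a TAIR10.1 gene table that served for names and gene order. Of the probe sets tested, 13513 name 1 gene, 503 several and 8730 are unnamed here, and 13436 matched the gene table. The probe set with the highest mean stands for a gene in lists. The rule for named genes took the 12 higher and 12 lower probe sets described, up to 4 of smallest p per list, and up to 6 per contrast with another line. The autophagy genes beyond 4, further plastid genes, the families and the lower-ranked root markers were named after their values were seen.

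The members and the 42 lists were chosen with earlier results of these data known. From the lists, 6 genes that only share the symbol of an intended gene were left out after the values were seen. A list of nuclear ribosomal proteins was dropped and the symbols of the mitochondrial list were set after the files were seen, and grouping by mean signal was added then. No set test was run. Alternatives tried were quantile normalization, array centring, adding 16 or 64 before the log, dropping probe sets under the 40th percentile of signal, omitting cross-hybridising ones, fitting only OE1 and Col-0, no trend, array weights, the replicate block, the 3' to 5' difference or the array median as a covariate, and leaving out each array.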

Additional observations from a re-analysis of the deposited data

Results flagged for a closer look

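Some genes named for OE1 against Col-0 also differed between OE1 and a second line by the limma test of that difference, with OE1 and the second line read against the same Col-0 arrays. psaC in OE1 exceeded its level in OE2 by 2.72 and that in fls1-3 by 3.61. atpH was higher than in fls1-3 by 1.36. ORA47 was higher than in OE2 by 3.199, with both lines lower than Col-0. AT1G52720 had a difference of -1.48 from fls1-3 and AT5G61660 one of -1.14.

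The control probe set r2-At-U12639 stood lower in OE1 and higher in OE2 than in Col-0. The difference between OE1 and OE2 was not tested. That between OE1 and Col-0 had an exact two-sided permutation p of 0.10, the smallest that 3 against 3 arrays allow. This probe set lay under the median of all probe sets (7.34) in Col-0 and OE1. It stood at 4.68, 5.15 and 5.31 on the Col-0 arrays, at 0.63, 1.59 and 1.70 on the OE1 arrays, at 14.18 to 14.38 on the OE2 arrays and at 13.03 to 13.50 on the fls1-3 arrays. OE1 minus Col-0 was -3.74 and OE2 minus Col-0 was 9.24. What this probe set detects is not annotated in the sources used here. The arrays labelled OE1 thus did not share the level of those labelled OE2.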

How the results depend on the processing

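OE1 against Col-0 gave 0 probe sets at an adjusted p of 0.05 in most settings. The count was 3 with a pseudocount of 16 or 64 (psaC, QQS and AT4G29200), 1 with only OE1 and Col-0 arrays, 22 with array quality weights and 0 to 22 when single arrays were left out, with 22 without Col-0 replicate 3. At an unadjusted p under 0.05, the higher probe sets numbered 745 with centred arrays, 2293 with array weights, 434 with the 3' to 5' covariate and 780 to 2424 without single arrays. The lower ones numbered 1635 with weights, 542 with the covariate and 679 to 1475 without single arrays. Against OE2 the count was 10 after quantile normalization, 532 with weights, 0 with the 3' to 5' covariate, 212 with each array's median in the fit and 4 to 19 without single arrays. Against fls1-3 it was 48 with centred arrays, 245 with the 40th percentile filter, 20 with no trend, 3783 with weights, 0 and 497 with those covariates and 17 to 578 without single arrays. Replicate numbers did not pair the samples, since the correlations between same-numbered residuals of OE1 and Col-0 were -0.488, 0.0713 and -0.0186 and each OE1 array correlated best with a Col-0 array of a different number. With replicate number as a block, 1 probe set passed against Col-0 (QQS, adjusted p = 0.0205) and 13 against OE2, and 1229 were higher and 987 lower at an unadjusted p under 0.05. The 24 named probe sets kept their direction in all 575 recomputed values, 27 of which were past the threshold, with psaC between 1.67 and 3.12 and QQS between -2.88 and -2.45. Of 669 recomputed list medians, 651 moved by less than the replicate spread. The control 3' to 5' difference stayed between 0.47 and 0.63. The sign turned with the 3' to 5' covariate for ndhE (-0.099), matK (-0.0090), ATG3 (0.053), ATG8C (0.081), UGT78D2 (-0.15), RCA (-0.18) and atpF (-0.29). It turned with the array median as a covariate for CHIL (-0.59), UGT78D1 (-0.24), AT1G06000 (-0.23), UGT78D2 (-0.069), UF3GT (-0.24), DFR (-0.82), HTB2 (-0.040) and PYK10 (-2.57). With centred arrays it turned for UGT78D2 (-0.045) and RCA (-0.025). Without single arrays CHIL ran from -0.39 to 0.91, UGT78D2 from -0.071 to 0.28 and PYK10 from -0.32 to 2.81. The cause of these moves was not tested.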
